A study of Mus musculus with 12 samples.

Results

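The Ifi200 family, also called the PYHIN or HIN-200 family, was followed through 10 of its mouse genes: Aim2, Ifi203, Ifi204, Ifi205, Ifi207, Ifi208, Ifi209, Ifi211, Ifi213 and Mndal. They were chosen by gene symbol, and all 10 were found among the 23185 genes that had 1 probe set of their own in a table of 25206 probe sets. The choice sets no threshold on a measured value, but the symbols were listed with earlier results of these data known. The family itself was selected on earlier expression results of these arrays, and which of those values led to it is not stated. The counts below are therefore a description of the family and no independent support for any pattern in it.

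RNA of splenic CD4+ T cells of mice was measured on 12 whole-transcript arrays, with 3 arrays for each of 4 groups. Cre+ 24h cells were Lck-Cre+;Ikzf-/- and were activated for 24 hours through CD3, with antibody bound to the plate, and CD28, with antibody in solution. Cre+ 0h cells had the same genotype and were taken untreated. Cre- 24h cells were Lck-Cre-;Ikzf+/+ with the same activation, and Cre- 0h cells were of that genotype and untreated. The Cre recombinase is driven by the promoter of Lck, a kinase gene of the T lineage, and it deletes Ikaros, a zinc finger transcription factor of lymphocytes encoded by Ikzf1. No group carried Cre with intact Ikaros, and no group was cultured for 24 hours without the antibodies. Effects of Cre itself and of deletion cannot be told apart, nor can those of culture and activation. The age of the mice is not given. Whether each array is a separate animal is not stated either, so the p-values measure the spread between these arrays. An array was read as female where Xist exceeded the Y-linked gene Eif2s3y. Those numbered 1 and 2 of Cre+ 0h, 2 and 3 of Cre- 24h, and 2 of the other groups read as female. Each group thus held both sexes in a differing mix, and its arrays were not all of a single animal.

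Values are log2 expression after RMA. The median of an array was 4.04 to 4.17, and precision is limited by the number of arrays. The mean of 8 CD4 T cell marker genes was 9.58 to 10.02 on the 6 activated arrays and 10.06 to 10.26 on the 6 untreated ones. The Ikzf1 probe set did not separate the genotypes: the Cre+ minus Cre- difference was -0.17 at 0 h and -0.13 at 24 h (limma adjusted p = 0.968 and 0.993), so it does not check the deletion. The activated arrays numbered 3 stood apart in both genotypes, with a mean over 19 cell cycle genes of 8.22 (Cre+) and 8.60 (Cre-) against 6.09 to 6.73 on the other 10 arrays. Without these arrays the count of family genes past the test was the same in all 5 comparisons.

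PYHIN proteins pair an N-terminal pyrin domain, which binds other pyrin domains, with HIN-200 domains that bind DNA, and some mouse members lack one or the other. Aim2 is the member with the best known function: it binds DNA in the cytosol and assembles an inflammasome through the adaptor Asc, encoded by Pycard, which activates caspase-1 and the release of interleukin-1 beta and interleukin-18. The p204 protein of Ifi204 has been linked to DNA sensing through Sting, as has human IFI16. Several Ifi200 genes were first found through their induction by interferon, which acts on promoters through the interferon-stimulated response element, the ISRE. The mouse genes lie side by side in 1 cluster on chromosome 1.

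The promoters of the members are shown first, since they show which members have closely alike promoters. Transcript and protein sequences were not compared. RefSeq promoters of build GRCm38.p6, from 250 bases before to 50 after each start, were at hand for 9 of the 10 members, with 2 starts each for Ifi203 and Mndal, 11 promoters in all. Those of Ifi208 (chr1:173673415-173673714, plus strand) and Ifi213 (chr1:173599223-173599522, minus strand) were identical at 282 of 315 aligned columns, or 89.5%. Those of Ifi207 (chr1:173741760-173742059, minus strand) and Ifi211 (chr1:173912997-173913296, minus strand) were 85.9% identical. These 4 are printed because the results below turn on how the genes of each pair behaved. They are written 5′ to 3′ on the gene's strand, and capitals mark the match to the ISRE motif, searched as GAAA, any 2 bases and GAAA again.
Ifi208: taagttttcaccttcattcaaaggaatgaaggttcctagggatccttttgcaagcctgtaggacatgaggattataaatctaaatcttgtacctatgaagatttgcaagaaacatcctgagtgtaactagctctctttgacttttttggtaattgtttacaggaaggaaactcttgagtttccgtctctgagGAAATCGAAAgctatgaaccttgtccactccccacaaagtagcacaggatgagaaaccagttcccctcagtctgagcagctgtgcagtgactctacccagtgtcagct
Ifi213: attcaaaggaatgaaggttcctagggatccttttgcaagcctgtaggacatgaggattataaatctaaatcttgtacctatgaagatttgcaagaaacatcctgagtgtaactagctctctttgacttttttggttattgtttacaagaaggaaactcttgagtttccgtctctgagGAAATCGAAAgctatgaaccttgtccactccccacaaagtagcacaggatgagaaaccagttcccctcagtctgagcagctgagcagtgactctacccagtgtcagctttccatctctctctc
Ifi207: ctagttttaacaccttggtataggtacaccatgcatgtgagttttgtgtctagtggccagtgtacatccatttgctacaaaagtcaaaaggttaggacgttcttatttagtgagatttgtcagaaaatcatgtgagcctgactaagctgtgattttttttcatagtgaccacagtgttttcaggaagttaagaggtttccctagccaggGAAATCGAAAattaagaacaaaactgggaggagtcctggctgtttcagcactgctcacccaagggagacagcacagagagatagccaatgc
Ifi211: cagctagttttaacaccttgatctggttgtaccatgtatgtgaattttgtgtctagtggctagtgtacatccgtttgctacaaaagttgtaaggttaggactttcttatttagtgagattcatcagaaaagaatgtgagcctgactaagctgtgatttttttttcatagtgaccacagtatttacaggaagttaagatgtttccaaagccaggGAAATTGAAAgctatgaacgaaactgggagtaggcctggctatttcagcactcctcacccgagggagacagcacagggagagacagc

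Counted from the start of the gene, the ISRE match began at position -58 in Ifi208, -73 in Ifi213, -41 in Ifi207 and -37 in Ifi211. Ifi208, Ifi213 and Ifi207 held the letters GAAATCGAAA, as did the Ifi203 and Mndal promoters, which were 90.7% identical between the second start of Ifi203 and the first of Mndal. Ifi211 held GAAATTGAAA, and the next most alike pair of members, Ifi208 and Ifi209, were 57.8% identical. On either strand, the ISRE letters were found in 7 of the 9 members with a promoter. Counted by promoter it was 8 of 11, against 3.44% of all 32851 promoters of the table. The members' promoters share ancestry, so they are not independent cases. The letters TGANTCA of the AP-1 site were found in 3 of 9 members, Ifi203, Ifi209 and Mndal, and in 5 of 11 promoters, against 7.81% of all promoters. The 2 promoters of Ifi203 overlap and share the same AP-1 match. The Ikaros core letters TGGGAA were found in 1 of 9 members, Ifi205, and 1 of 11 promoters, against 25.6%. The GAS letters TTCNNNGAA (8.3% of all promoters) and the NF-kappaB letters, GGG, any 2 bases and TTTCC (1.63%), matched in 0 of 9. Aim2 held no match to any of the 5 motifs. Within a promoter no match overlapped another. A match describes these letters in this window and says nothing of binding.

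**Figure D1:**
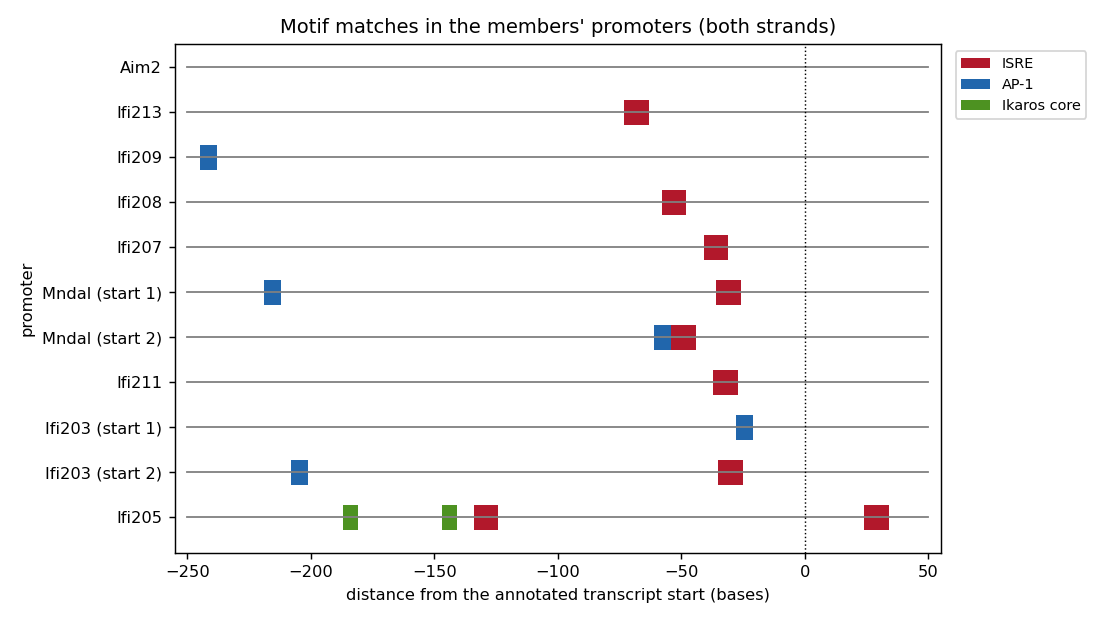
Position of each motif match along the members' promoters, in bases from the gene's start, with 1 line per promoter. ISRE letters lie close before the start of Ifi203, Ifi207, Ifi208, Ifi211, Ifi213 and Mndal, and the lines of Ifi209 and Aim2 hold none.

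All calls in the family came from the comparisons of activation. Comparing activated with untreated cells, 7 of 10 members fell and 0 rose in Cre+ cells, and the same 7 of 10 fell and 0 rose in Cre- cells: Ifi203, Ifi207, Ifi208, Ifi209, Ifi213, Mndal and Aim2. Of all genes tested, 10.6% fell and 10.1% rose in Cre+ cells, and 9.1% fell and 9.39% rose in Cre- cells (limma adjusted p under 0.05 over 23185 genes). The median log2 difference of the 10 members was -1.21 in Cre+ and -1.44 in Cre- cells, beside -0.02 and -0.0047 over all genes. The 3 activated arrays lay wholly below the 3 untreated ones for 7 members in Cre+ and 8 in Cre- cells, where 19.3% and 17.4% of all genes did so. The samples are bulk RNA, in which fewer cells of a type and less RNA per cell cannot be told apart. Markers of B cells and of myeloid and dendritic cells moved mostly in the same direction. Of 13 B cell markers, 9 fell in Cre+ and 12 in Cre- cells. Of 13 myeloid and dendritic markers, 9 fell in Cre+ and 11 in Cre- cells. Of 4 natural killer cell markers, 2 fell and 1 rose in Cre+ cells, and 3 fell in Cre- cells. In each genotype 0 of 2 CD8 T cell markers and 0 of 4 erythroid and platelet markers passed. Of the 8 CD4 T cell markers, 5 fell in Cre+ and 2 in Cre- cells. The part of cell composition in the family's change was not tested.

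**Figure D2:**
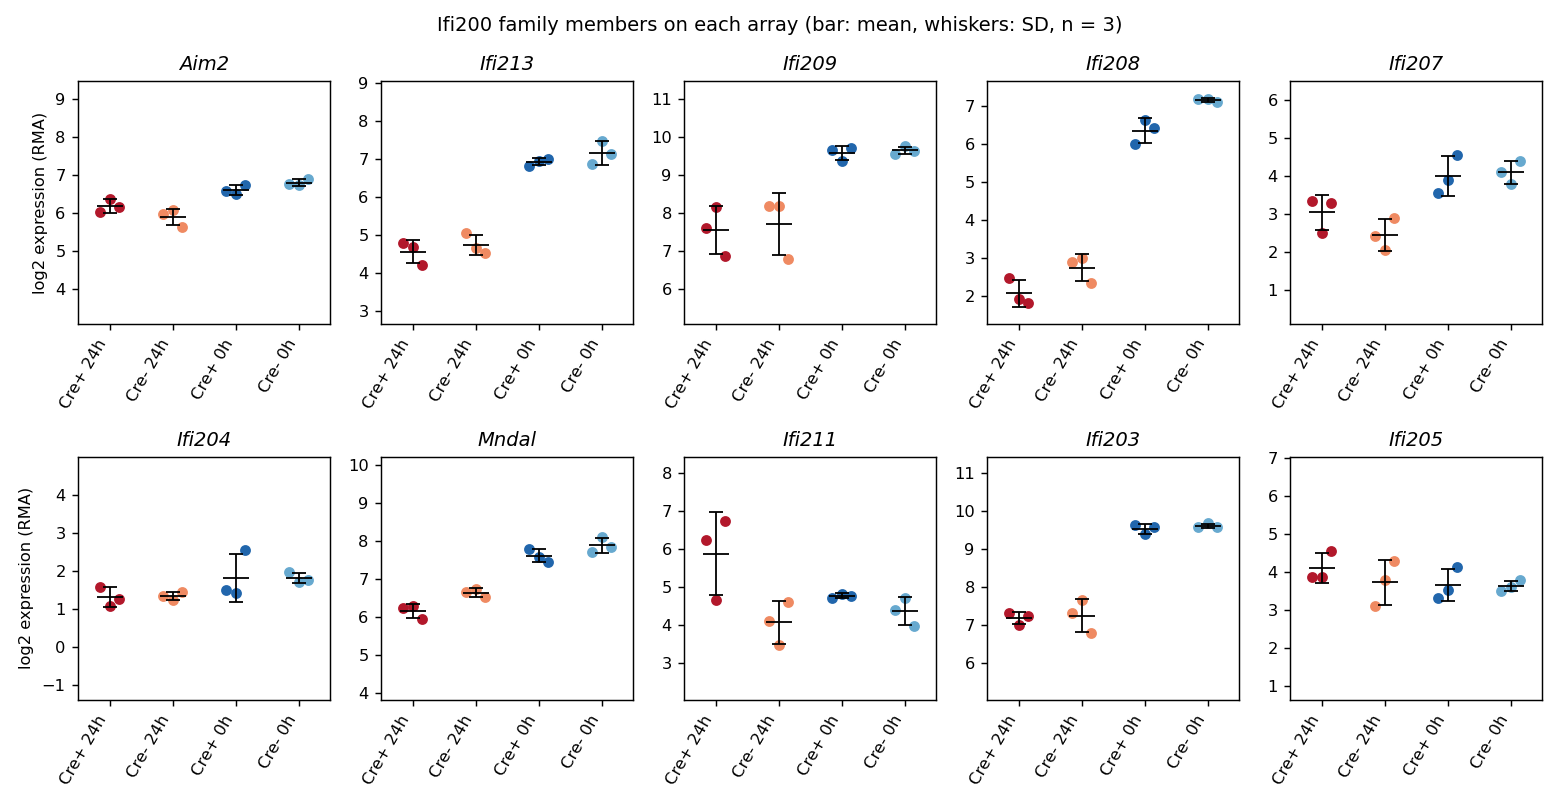
Log2 expression of each of the 10 members on every array, 1 panel per gene, with points for single arrays and a bar for the mean of 3 in each of the 4 groups. Activated arrays lie below untreated arrays of the same genotype for Ifi203, Ifi208, Ifi209, Ifi213, Mndal and Aim2, and the 3 Cre+ 24h arrays of Ifi211 range from 4.66 to 6.76.

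Ifi208, also named Pydc3 for its pyrin domain, fell furthest. Its log2 values were 2.49, 1.92 and 1.81 in Cre+ 24h cells, against 6.00, 6.64 and 6.43 in Cre+ 0h cells. In Cre- cells they were 2.89, 3.01 and 2.34 at 24 h, against 7.19, 7.19 and 7.11 at 0 h. All activated arrays lay more than 2 log2 units below all untreated ones, and below their own array's median. The difference was -4.28 (SE 0.22) in Cre+ cells, 19.5-fold lower, and -4.42 (SE 0.22) in Cre- cells, 21.4-fold lower (limma adjusted p = 4.5e-07 and 3.6e-07). Among the 23185 genes it ranked 2 from the lowest difference in Cre+ cells and 5 from the lowest in Cre- cells. Whether so dim a reading lies above background was not tested, so the fold compares readings.

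Ifi213, also named Pydc4 for its pyrin domain and a near copy of Ifi208 at its promoter, moved the same way by a smaller difference. Its values were 4.78, 4.69 and 4.23 in Cre+ 24h cells and 6.82, 6.96 and 7.01 in Cre+ 0h cells. Cre- cells read 5.05, 4.65 and 4.53 at 24 h and 6.88, 7.49 and 7.13 at 0 h. No activated array reached an untreated one. Ifi213 fell by 2.36 (SE 0.19) in Cre+ and by 2.42 (SE 0.19) in Cre- cells, with limma adjusted p = 9.99e-06 and 9.05e-06. Probe sets of related genes may share probe sequences, and whether these do was not tested here.

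Ifi203, whose second promoter is a near copy of one of Mndal, read 7.31, 7.00 and 7.23 in Cre+ 24h cells, against 9.63, 9.38 and 9.58 in Cre+ 0h cells. In Cre- cells the values were 7.30, 7.64 and 6.77 at 24 h, against 9.56, 9.67 and 9.56 at 0 h. The untreated arrays of both genotypes spanned only 9.38 to 9.67, and every activated array lay below them. The difference was -2.35 (SE 0.18) in Cre+ and -2.36 (SE 0.18) in Cre- cells, about 5.09-fold and 5.13-fold lower (limma adjusted p = 7.75e-06 and 8.31e-06). Ifi203 and Ifi213 were the member pair with the most alike pattern: after centring each gene on its own mean, their values differed by 0.27 (root mean square over 12 arrays).

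Ifi209, also named Pyhin1, read 7.61, 8.14 and 6.87 in Cre+ 24h cells and 9.66, 9.37 and 9.70 in Cre+ 0h cells. Cre- cells read 8.17, 8.17 and 6.77 at 24 h and 9.54, 9.75 and 9.63 at 0 h. The groups did not overlap, although the activated arrays spread far more than the untreated ones, and the array numbered 3 was lowest in both genotypes. It fell by 2.04 (SE 0.36) in Cre+ and by 1.94 (SE 0.36) in Cre- cells, with limma adjusted p = 0.00234 and 0.00351. On those same arrays numbered 3, the 13 B cell markers had the highest mean of their group, 7.43 in Cre+ and 6.72 in Cre- cells. The other activated arrays read 5.36 to 6.83. The 19 cell cycle genes also had their highest mean on the arrays numbered 3, 8.22 in Cre+ and 8.60 in Cre- cells.

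Mndal, the mouse gene named after human MNDA, a nuclear antigen of myeloid cells, read 6.23, 6.29 and 5.95 in Cre+ 24h cells and 7.79, 7.59 and 7.45 in Cre+ 0h cells. Its Cre- values were 6.67, 6.74 and 6.53 at 24 h and 7.71, 8.10 and 7.85 at 0 h. Both activated groups lay below both untreated groups. It fell by 1.46 (SE 0.14) in Cre+ cells, 2.75-fold, and by 1.24 (SE 0.14) in Cre- cells, 2.36-fold (limma adjusted p = 2.99e-05 and 0.000112).

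Aim2, the cytosolic DNA receptor of the inflammasome, changed least among the 7. Its values were 6.02, 6.37 and 6.15 in Cre+ 24h cells, against 6.57, 6.50 and 6.75 in Cre+ 0h cells. In Cre- cells they were 5.97, 6.07 and 5.64 at 24 h, against 6.76, 6.74 and 6.90 at 0 h. The groups did not overlap in either genotype, and in Cre+ cells the nearest arrays were 6.37 and 6.50. It fell by 0.43 (SE 0.13) in Cre+ cells (limma adjusted p = 0.0427) and by 0.91 (SE 0.13) in Cre- cells (limma adjusted p = 0.000812). The call in Cre+ cells was lost in 14 of 22 alternative settings, where its adjusted p ran up to 0.158.

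Ifi207 carries a promoter close to that of Ifi211. Its values were 3.34, 2.51 and 3.28 in Cre+ 24h cells and 3.55, 3.89 and 4.56 in Cre+ 0h cells. Cre- cells read 2.41, 2.06 and 2.89 at 24 h and 4.10, 3.78 and 4.40 at 0 h. The groups did not overlap, but the highest activated Cre+ array (3.34) lay close to the lowest untreated one (3.55). It fell by 0.96 (SE 0.30) in Cre+ cells (limma adjusted p = 0.0451), a call lost in 12 of 21 alternative settings with an adjusted p of up to 0.173, and by 1.64 (SE 0.30) in Cre- cells (limma adjusted p = 0.00326). The other 5 genes, Ifi203, Ifi208, Ifi209, Ifi213 and Mndal, passed in both genotypes under every alternative that tested them.

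Ifi211 did not follow Ifi207, the member whose promoter was most like its own. Its values were 6.24, 4.66 and 6.76 in Cre+ 24h cells, against 4.71, 4.84 and 4.78 in Cre+ 0h cells. In Cre- cells they were 4.13, 3.50 and 4.62 at 24 h, against 4.41, 4.72 and 3.98 at 0 h. Of the activated Cre+ arrays, those numbered 1 and 3 lay above all untreated arrays and that numbered 2 lay below the 3 untreated Cre+ arrays. The activation difference was 1.11 (SE 0.44) in Cre+ and -0.29 (SE 0.44) in Cre- cells, neither past the test (limma adjusted p = 0.107 and 0.744). Without the Cre+ 24h array numbered 2 the Cre+ difference was 1.72 and passed (limma adjusted p = 0.00206). With array weights it was 1.39 and passed as well (limma adjusted p = 0.0019). The B cell marker mean on the Cre+ 24h arrays ran 6.83, 5.98 and 7.43, in the same order as Ifi211. On the Cre- 24h arrays it ran 5.36, 5.83 and 6.72, which is not the order of Ifi211. Untreated arrays had B cell means of 8.26 to 8.66 with Ifi211 at 3.98 to 4.84. The cell cycle mean ran 6.73, 6.12 and 8.22 on the Cre+ 24h and 6.15, 6.14 and 8.60 on the Cre- 24h arrays, in the order of Ifi211. The part of either in the Ifi211 values was not tested.

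Ifi204 and Ifi205, the remaining members, did not pass in either genotype. Ifi204 read 1.08 to 1.58 in Cre+ 24h and 1.40 to 2.54 in Cre+ 0h cells, and 1.22 to 1.44 in Cre- 24h and 1.71 to 1.96 in Cre- 0h cells. These values lie near the low end of the table, which starts at 0.542, and only in Cre- cells did the 3 activated arrays lie wholly below the 3 untreated ones. The Ifi204 differences were -0.50 (Cre+) and -0.48 (Cre-), with limma adjusted p = 0.207 and 0.244. In Cre- cells Ifi204 passed when only the arrays compared were fitted (limma adjusted p = 0.0422) and without the Cre+ 0h array numbered 3 (limma adjusted p = 0.0384). Ifi205 read 3.88 to 4.56 in Cre+ 24h and 3.31 to 4.14 in Cre+ 0h cells, and 3.11 to 4.28 in Cre- 24h and 3.50 to 3.78 in Cre- 0h cells. Its differences were 0.45 (Cre+) and 0.10 (Cre-), with limma adjusted p = 0.354 and 0.882.

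**Figure D3:**
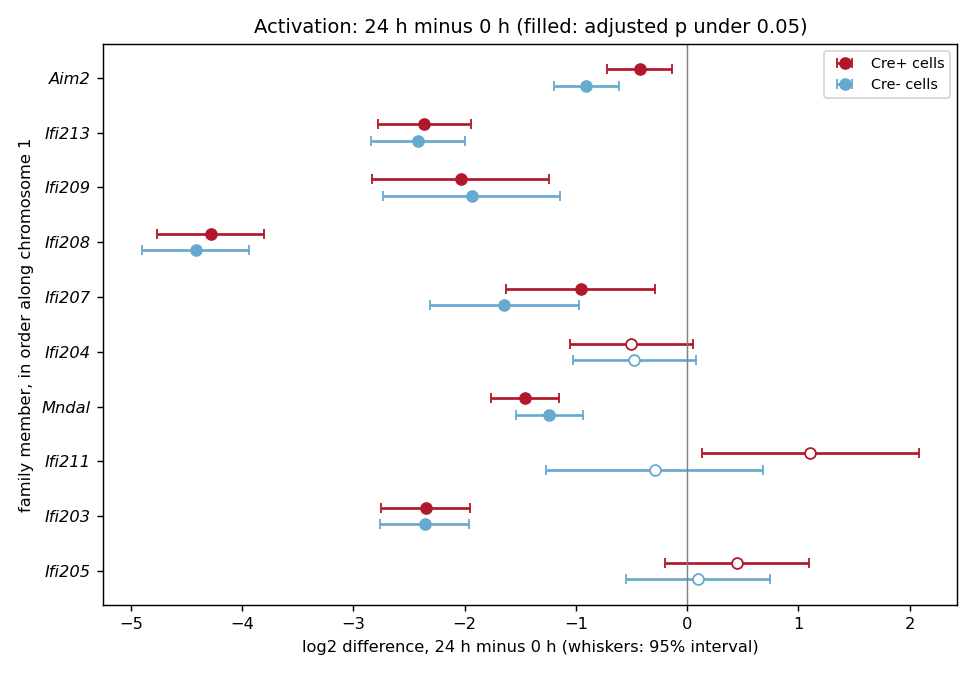
Activation difference (24h minus 0h, log2) of each member in Cre+ and Cre- cells, with 95% confidence intervals from the limma model. Ifi208 lies lowest, at -4.28 in Cre+ and -4.42 in Cre- cells, and the intervals of Ifi204, Ifi205 and Cre- Ifi211 cross 0.

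The genotype comparisons set Cre+ beside Cre- cells at rest and after activation. In neither did a member pass: 0 of 10 at 0 h and 0 of 10 at 24 h, where 0.552% and 0.729% of all genes passed (limma adjusted p under 0.05). With array weights 4 of 10 passed at 24 h, Ifi207 and Ifi211 higher and Ifi208 and Mndal lower, in a fit that called 2416 genes in all. At an unadjusted p under 0.05 there was 1 member at 0 h, Ifi208, and 3 at 24 h, Ifi208, Ifi211 and Mndal. Of all genes, 6.93% at 0 h and 7.51% at 24 h had such a p. The median Cre+ minus Cre- difference over the 10 members was -0.08 at 0 h and -0.04 at 24 h, beside 0.0018 and -0.01 over all genes. The groups did not overlap for 1 member at 0 h and 2 at 24 h, where 16.2% and 10.8% of all genes did not.

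Ifi208 was lower in all 3 Cre+ arrays than in all 3 Cre- arrays at 0 h, at 6.00, 6.64 and 6.43 against 7.19, 7.19 and 7.11. The difference was -0.81 (95% interval -1.29 to -0.33), 1.75-fold lower, with limma adjusted p = 0.240. At 24 h, with Cre+ values of 2.49, 1.92 and 1.81 against Cre- values of 2.89, 3.01 and 2.34, the groups overlapped. The difference there was -0.67 (95% interval -1.15 to -0.19), with limma adjusted p = 0.341. The sign was therefore the same at both times, and neither difference passed.

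Ifi211 had the largest genotype difference of the family after activation. The Cre+ 24h values of 6.24, 4.66 and 6.76 all lay above the Cre- 24h values of 4.13, 3.50 and 4.62, the closest pair being 4.66 and 4.62. The difference was 1.80 (95% interval 0.83 to 2.78), 3.49-fold, with limma adjusted p = 0.131. It passed with array weights (2.48, limma adjusted p = 0.00016) and without the Cre+ 24h array numbered 2 (2.42, limma adjusted p = 0.00323). At 0 h the values of 4.71, 4.84 and 4.78 in Cre+ cells overlapped those of 4.41, 4.72 and 3.98 in Cre- cells, with a difference of 0.40. All 13 B cell markers also had a higher mean in Cre+ than in Cre- cells at 24 h, by a median of 0.70, and 0 of 13 passed. At 0 h all 13 were lower in Cre+ cells, by a median difference of -0.16, and 0 of 13 passed. The part of B cell RNA in the Ifi211 difference was not tested.

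Mndal was lower in all 3 Cre+ arrays at 24 h, at 6.23, 6.29 and 5.95 against 6.67, 6.74 and 6.53 in Cre- cells. The difference was -0.49 (95% interval -0.80 to -0.19), 1.41-fold lower, with limma adjusted p = 0.203. At 0 h it was -0.27 (95% interval -0.58 to 0.03), and the groups overlapped. The 95% intervals of Ifi203, Ifi204, Ifi205, Ifi207, Ifi209, Ifi213 and Aim2 included 0 at both times. The narrowest of these at 24 h, that of Aim2, ran from -0.0086 to 0.58, and the widest, that of Ifi209, from -0.96 to 0.63. These intervals are not adjusted over genes, and the arrays do not exclude a difference that lies inside one.

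**Figure D4:**
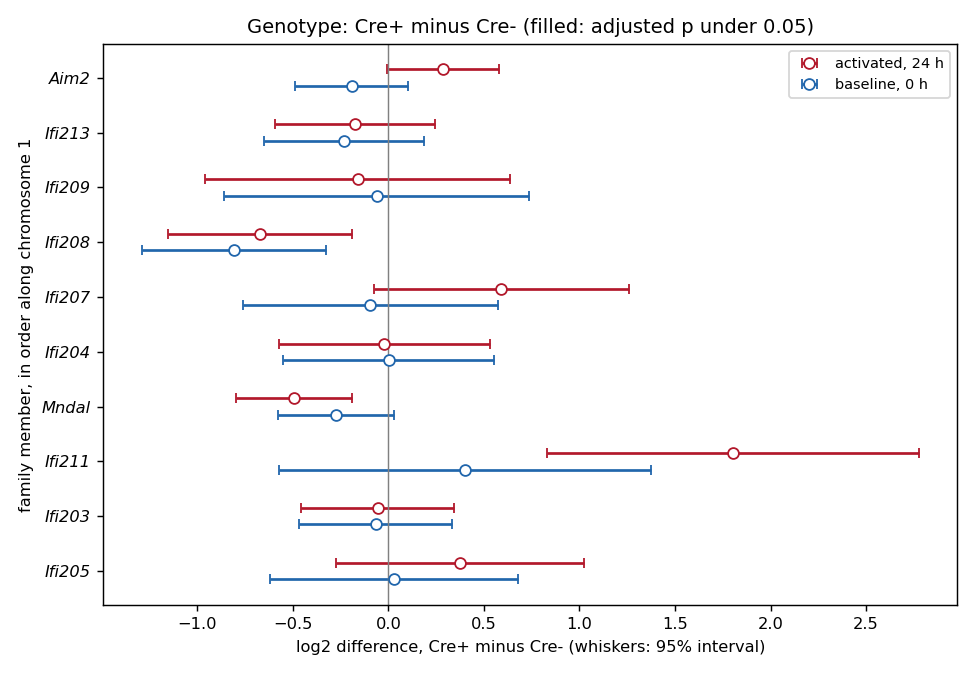
Genotype difference (Cre+ minus Cre-, log2) of each member at 24 h and at 0 h, with 95% confidence intervals from the limma model. Ifi211 at 24 h lies at 1.80, Ifi208 lies below 0 at both times, and most other intervals cross 0.

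The difference of the activation responses, Cre+ minus Cre-, passed for 0 of 10 members, where 0.00863% of all genes passed, and 2 members had an unadjusted limma p under 0.05, as did 4.7% of all genes. These were Ifi211, at 1.40 (95% interval 0.02 to 2.78, limma adjusted p = 1), and Aim2, at 0.48 (95% interval 0.06 to 0.90, limma adjusted p = 0.986). The difference of responses was 0.01 for Ifi203, 0.14 for Ifi208, 0.06 for Ifi213 and -0.10 for Ifi209. The interval for Ifi208 ran from -0.55 to 0.82.

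**Figure D5:**
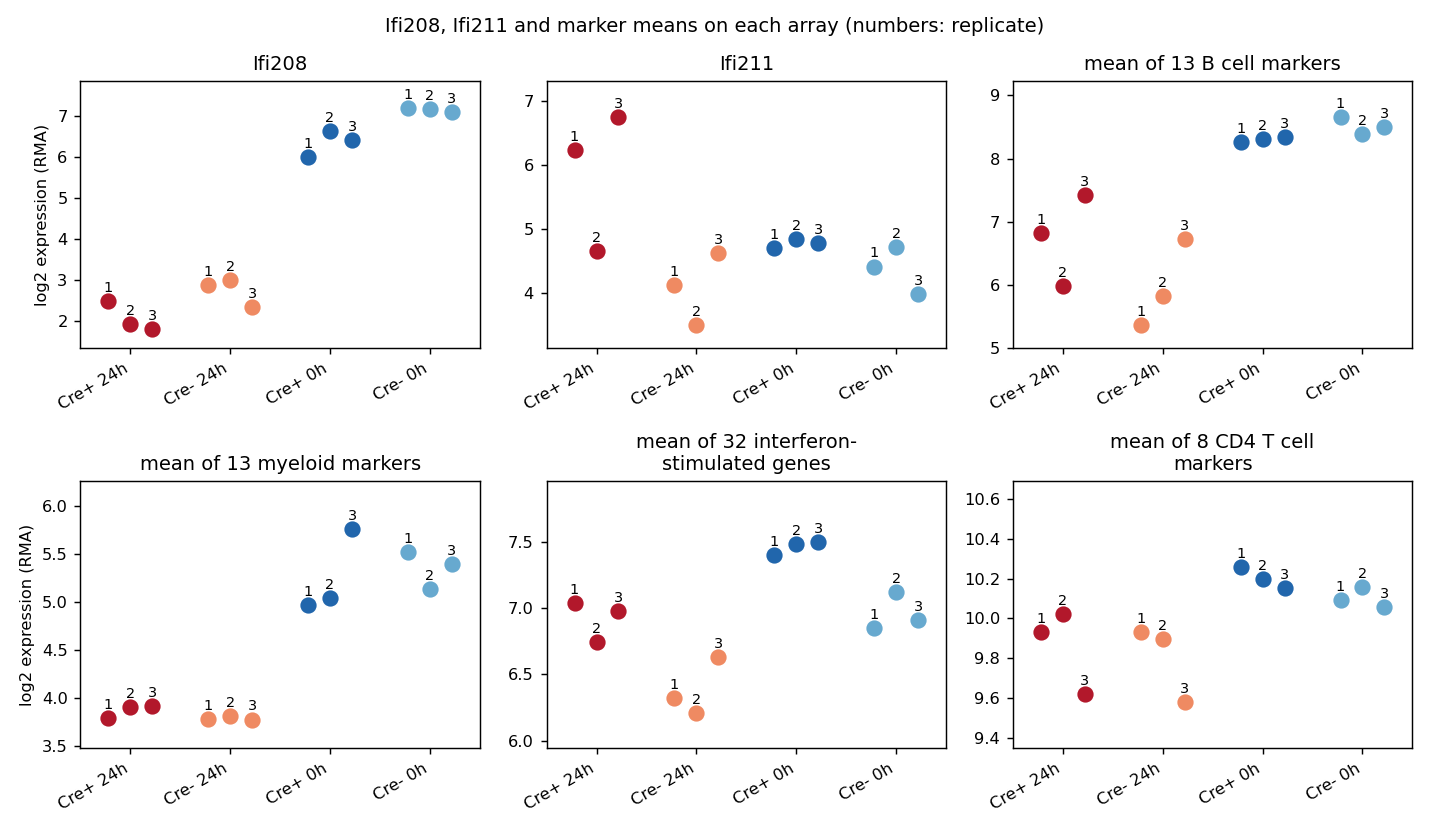
Log2 level on every array, by group and numbered by replicate, of Ifi208, Ifi211 and the means of 13 B cell, 13 myeloid and dendritic, 32 interferon-stimulated and 8 CD4 T cell genes. B cell and myeloid means lie lower on activated than on untreated arrays of both genotypes, and the B cell means of the 24 h arrays range from 5.36 to 7.43.

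The B cell mean fell to 6.83, 5.98 and 7.43 on the Cre+ 24h arrays, against 8.26, 8.31 and 8.34 on the Cre+ 0h arrays. It was 5.36, 5.83 and 6.72 on the Cre- 24h arrays, against 8.66, 8.39 and 8.49 on the Cre- 0h arrays. The myeloid and dendritic mean lay between 3.78 and 3.91 on the 6 activated arrays and between 4.97 and 5.76 on the 6 untreated ones. The members stood differently beside the B cell mean, which was highest on the array numbered 3 among the 24 h arrays of each genotype. The mean of 19 cell cycle genes was also highest on that array, at 8.22 in Cre+ and 8.60 in Cre- cells. The 2 traits cannot be told apart there. On that array Ifi208, Ifi209, Ifi213 and Mndal had their lowest value of the group in both genotypes, and Ifi205 and Ifi211 their highest. Ifi203 and Aim2 were lowest, and Ifi204 and Ifi207 highest, on it in Cre- cells only. The parts of B cell RNA and of cell cycling in these values were not tested. Without both arrays numbered 3, Ifi208 fell by 4.15 in Cre+ and by 4.21 in Cre- cells.

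Of the other genes of the cluster, 3 were measured. Ifi214 fell by 2.02 in Cre+ and by 1.92 in Cre- cells (limma adjusted p = 0.000332 and 0.000514), with means of 5.02 ± 0.33 at 24 h and 7.04 ± 0.05 at 0 h in Cre+ cells (SD, n = 3). In Cre- cells it averaged 5.04 ± 0.64 at 24 h and 6.95 ± 0.19 at 0 h. The pseudogene Ifi203-ps fell by 1.15 in Cre+ and by 0.73 in Cre- cells (limma adjusted p = 0.000284 and 0.00518). Ifi202b read 1.23 to 1.70 on all arrays and passed in no comparison. None of the 3 passed in a genotype comparison. Along the chromosome the genes run Aim2, Ifi214, Ifi213, Ifi209, Ifi208, Ifi207, Ifi204, Ifi203-ps, Mndal, Ifi211, Ifi203, Ifi202b and Ifi205. Genes that fell lay along most of this order, with Ifi204, Ifi211, Ifi202b and Ifi205 between or beside them. Of the 10 measured genes next to the cluster, 5 on each side and most of them olfactory receptor genes, 1 passed in any comparison. Cadm3, a cell adhesion gene, fell by 0.82 in Cre- cells (limma adjusted p = 0.0032), where 9.1% of all genes fell. In Cre+ cells its difference was -0.30 (limma adjusted p = 0.206). The 10 genes were dim, with group means from 1.42 (Fcer1a, Cre+ 0h) to 4.42 (Cadm3, Cre- 0h), beside array medians of 4.04 to 4.17. Genes this dim can hardly show a fall, so the count does not mark where the fall ends.

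Of 17 inflammasome genes, among them the Aim2 partners Pycard and Casp1 as well as other sensors and their regulators, 7 fell and 1 rose in Cre+ cells, and 11 fell and 1 rose in Cre- cells. Of all genes, 10.6% fell and 10.1% rose in Cre+ cells, and 9.1% fell and 9.39% rose in Cre- cells. Pycard, the adaptor gene, fell to 6.09 ± 0.17 in Cre+ 24h cells, against 7.17 ± 0.10 in Cre+ 0h cells (SD, n = 3), a difference of -1.08 (limma adjusted p = 0.0001). In Cre- cells it averaged 6.32 ± 0.18 at 24 h and 7.33 ± 0.03 at 0 h, a difference of -1.01 (limma adjusted p = 0.000178). Casp1, the inflammatory caspase, differed by -0.43 in Cre+ cells (limma adjusted p = 0.175) and fell by 0.98 in Cre- cells (limma adjusted p = 0.00581). Il18 fell by 0.80 in Cre+ and by 0.82 in Cre- cells, and Txnip, a thioredoxin-binding protein that binds Nlrp3, by 2.52 and 2.44 (limma adjusted p of 0.00135 or less for each). Il1b, an interleukin whose transcripts are typical of myeloid cells, differed by -0.15 in Cre+ cells (limma adjusted p = 0.835) and fell by 1.36 in Cre- cells (limma adjusted p = 0.0164). Casp4, the caspase that senses bacterial lipopolysaccharide, was the member that rose, by 0.99 in Cre+ and 0.59 in Cre- cells.

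Of 22 genes of cytosolic DNA sensing and Sting signalling, 4 rose and 1 fell in Cre+ cells, and 3 rose and 3 fell in Cre- cells, with medians of 0.18 and 0.21. Among all genes 10.1% rose and 10.6% fell in Cre+ cells, and 9.39% rose and 9.1% fell in Cre- cells. Irf3, the transcription factor downstream of Sting, fell by 0.51 in Cre+ and by 0.39 in Cre- cells (limma adjusted p = 0.00946 and 0.0403). Cgas, the cytosolic DNA sensor that makes the ligand of Sting, differed by 0.20 in Cre+ and 0.30 in Cre- cells. Sting1 differed by -0.17 and -0.27, and neither gene passed. In the genotype comparisons 0 of 22 passed with limma, with 1 at an unadjusted p under 0.05 at each time. For the inflammasome genes it was 0 of 17, with 2 at 0 h and 1 at 24 h at an unadjusted p under 0.05. Of all genes, 0.552% passed at 0 h and 0.729% at 24 h, and 6.93% and 7.51% had such an unadjusted p.

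Interferon-stimulated genes outside the family are induced in large part through an ISRE. Of 32 such genes, 17 fell and 3 rose on activation in Cre+ cells, and 16 fell and 3 rose in Cre- cells, with medians of -0.79 and -0.74. The shares of all genes were 10.6% falling and 10.1% rising in Cre+ cells, and 9.1% and 9.39% in Cre- cells. Oas2, an oligoadenylate synthetase that senses double-stranded RNA, fell by 2.72 in Cre+ and by 2.60 in Cre- cells. Gbp2, an interferon-inducible GTPase, rose by 2.58 and 3.19. Among 18 genes of interferon signalling, 6 fell and 5 rose in Cre+ cells, and 4 fell and 3 rose in Cre- cells. Irf7, a transcription factor induced by interferon, fell by 1.70 in Cre+ and by 1.63 in Cre- cells (limma adjusted p = 0.000117 and 0.000173).

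Between the genotypes, a few interferon-stimulated genes passed the test, where 0.552% of all genes passed at 0 h and 0.729% at 24 h. At 0 h, 3 of the 32 genes were higher in Cre+ cells, Oas2 by 1.83, Ifih1, a sensor of viral RNA, by 1.10, and Ifitm3, a membrane protein that blocks virus entry, by 2.00. At 24 h, 4 were higher: Oas2 by 1.71, Ifih1 by 1.46, Oasl2 by 1.74 and Ifitm3 by 4.31 (limma adjusted p of 0.0361 or less for each). The median of the 32 was 0.35 at each time, beside -0.08 at 0 h and -0.04 at 24 h for the 10 members, and this difference between the lists was not tested. Of the 18 interferon signalling genes 0 passed with limma in a genotype comparison, with 2 at 0 h and 1 at 24 h at an unadjusted p under 0.05. Such a p was found for 6.93% of all genes at 0 h and 7.51% at 24 h.

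Genes outside the family with the most alike pattern were taken by the root mean square difference of centred log2 values over the 12 arrays. For Ifi203 the nearest was Ddx58 (0.19), which encodes the RNA sensor RIG-I, and for Ifi213 it was Samd9l (0.14). For Ifi208 the nearest were Cr2 (0.53), a complement receptor of B cells, Fcmr (0.58), the IgM Fc receptor, and Dtx1 (0.66). Cr2 averaged 3.45 ± 0.18 in Cre+ 24h and 6.92 ± 0.10 in Cre+ 0h cells, and 3.34 ± 0.11 in Cre- 24h and 7.39 ± 0.31 in Cre- 0h cells (SD, n = 3). The nearest member to Ifi208, Ifi213, lay at 1.04. For Ifi211 the nearest gene was Plaur (0.34), the urokinase receptor, which averaged 7.43 ± 0.88 in Cre+ 24h and 5.64 ± 0.11 in Cre- 24h cells. For Ifi209, Mndal and Aim2 the nearest genes were Slc49a4 (0.13), Entpd5 (0.13) and Cep350 (0.10). A small value can come from a gene that varies little, so these values describe likeness within each gene's own range.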

How the data were processed

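The authors deposited 1 log2 expression value per probe set and array, made with RMA, affy 1.36.1 and R 2.15.1 per the submitters' processing notes. The labels' protocols give a column RNA kit, biotin labelling and whole-transcript mouse arrays, and neither names the chip definition file or the genome build behind the probe sets. Of 25206 probe sets, 23185 paired with exactly 1 gene and were tested, and the other 2021, which did not, were left out. Groups came from the genotype and time labels.

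The 12 log2 columns were fitted as deposited in R 4.3.3 with limma 3.58.1, each group having its own mean, with 8 residual and 3.55 prior degrees of freedom. It gave 5 two-sided comparisons: Cre+ minus Cre- at 24 h and at 0 h, 24h minus 0h in each genotype, and the difference of these responses. A gene passed where its p-value, adjusted by Benjamini-Hochberg across the 23185 genes, was under 0.05. SE and 95% intervals are limma's, and SD is over 3 arrays. The model was tested on simulated data. No pair of arrays was identical.

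The 10 members, the gene lists and the motifs were chosen with earlier results of these data known. All members, the rest of the family, the inflammasome and interferon effectors, the 5 nearest genes on each side of the cluster and the cell markers could be named at any value, and up to 4 genes of a list by smallest adjusted p. Promoter letters were searched on both strands with Python 3.11.15 and aligned with Biopython 1.88. Sequences are RefSeq's, from build GRCm38.p6. Alternatives tried were a variance trend, array weights, a block for the replicate number, a mean of at least 5, all probe sets, median centring, quantile normalization, only the arrays compared, sex as a covariate, the activated arrays numbered 3 left out, and each array left out in turn.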

Additional observations from a re-analysis of the deposited data

How the results depend on the processing

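With 3 arrays a group, small differences could not be told from the spread of the arrays. On activation, 5 to 8 members passed in Cre+ and 5 to 8 in Cre- cells over the 22 alternatives, and leaving out single arrays gave 5 to 7 in Cre+ and 7 to 8 in Cre- cells. The 8 in Cre+ cells came with array weights, where 7 fell and 1, Ifi211, rose by 1.39 (limma adjusted p = 0.0019). Without the Cre+ 24h array numbered 2, 6 fell and 1, again Ifi211, rose. The 5 in Cre- cells came with a minimum mean of 5, where all 5 members tested passed. The minimum mean of 5 left Ifi204, Ifi205, Ifi207, Ifi208 and Ifi211 untested. In the genotype comparison at 24 h, 0 members passed, but 4 did with array weights: Ifi207 (1.09), Ifi211 (2.48), Ifi208 (-0.58) and Mndal (-0.51). Leaving out single arrays gave 0 to 1, the 1 being Ifi211 without the Cre+ 24h array numbered 2. The difference of responses had 1 member with array weights, Ifi211 at 2.10 (limma adjusted p = 0.0418), and 0 in the 12 fits that leave out 1 array. The genotype count at 0 h was 0 under all alternatives. Of 18 pairs of same-numbered samples, 5 had a correlation of their deviations over 0.1, the highest being 0.728 for the activated arrays numbered 3, so the numbers were not taken to pair the samples as a whole. With the replicate number as a block 6 members passed in Cre+ and 7 in Cre- cells on activation, and 0 in the other 3 comparisons; Aim2 in Cre+ cells was the call lost (limma adjusted p = 0.0591). Over the whole table, 128 genes passed between genotypes at 0 h (50 to 321 over the alternatives), 169 at 24 h (9 with only the arrays compared, 2416 with array weights), 4795 on activation in Cre+ cells (3148 to 8292), 4287 in Cre- cells (2877 to 5909) and 2 in the difference of responses (0 to 143).

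Signs turned only for differences that did not pass in either setting, 54 in all. At 0 h between genotypes, Ifi204 was -0.027 with array weights, -0.022 with quantile normalization and -0.0015 with median centring, and Ifi207 was 0.076 with sex as a covariate. At 24 h, Ifi204 was 0.25 with array weights, 0.0058 with quantile normalization and 0.054 without the activated arrays numbered 3. Without those arrays the activation difference of Ifi205 in Cre- cells was -0.18. The difference of responses of Ifi203 was -0.17 with array weights, -0.019 with median centring, -0.045 with sex and -0.25 without the arrays numbered 3, and that of Ifi204 was 0.28 with array weights, 0.027 with quantile normalization and 0.052 without the arrays numbered 3. Leaving out single arrays, the 0 h genotype difference ran from -0.12 to 0.0078 for Ifi203, -0.37 to 0.20 for Ifi204, -0.21 to 0.20 for Ifi205, -0.38 to 0.13 for Ifi207 and -0.13 to 0.043 for Ifi209. At 24 h it ran from -0.29 to 0.14 for Ifi203, -0.16 to 0.092 for Ifi204 and -0.63 to 0.17 for Ifi209. Activation in Cre- cells ran from -0.18 to 0.41 for Ifi205 and -0.56 to 0.0011 for Ifi211. The difference of responses ran from -0.22 to 0.21 for Ifi203, -0.23 to 0.34 for Ifi204, -0.072 to 0.28 for Ifi208, -0.56 to 0.23 for Ifi209 and -0.11 to 0.23 for Ifi213. The cause of these changes was not tested.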
